A study of Mus musculus with 14 samples.

Results

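The genes described here are the mouse protein-coding genes whose symbol is Zfp followed by a number of 700 or more. RefSeq listed 136 of them among 21631 protein-coding genes on the numbered chromosomes and X, and 113 had a gene locus on the mm9 build, on which the RNA-seq loci and the histone mark peaks lie. The 23 without an mm9 locus (Zfp738, Zfp748, Zfp781, Zfp799, Zfp850, Zfp853, Zfp866, Zfp870, Zfp882, Zfp950, Zfp953, Zfp955a, Zfp955b, Zfp956, Zfp960, Zfp963, Zfp967, Zfp973, Zfp979, Zfp980, Zfp990, Zfp994 and Zfp996) could be matched in the pulldown alone. None of these 23 was matched in all 3 pulldown libraries, so none was compared there. Values came from LEPC, a mouse cell line (strain C57BL/6, 3 passages). Its cells were a control (scr), cells overexpressing miR-93-5p, or cells overexpressing a mutated form of it, for which mutant is used here. RNA-seq and the capture of mRNAs interacting with the microRNA, called pulldown here, covered all 3 conditions, and chromatin immunoprecipitation of H3K9me3, H3K4me3 and H3K27me3 covered scr and miR-93-5p. The vector and the level of overexpression are not given in the sources used here. Input samples were not used here. Every assay had 1 library per condition, so no difference below has a replicate error, a test or a p-value, and each is a difference between libraries of 1 cell line.

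Most of these genes encode proteins with arrays of C2H2 zinc fingers, the fingers reading DNA sequence, often joined to a KRAB domain that recruits the corepressor Trim28 and the H3K9 methyltransferase Setdb1. Such proteins are known for silencing endogenous retroviruses, and their genes have multiplied in clusters in rodents. H3K9me3, a mark of heterochromatin, is known to lie over the zinc finger exons at the 3' end of the same genes, while H3K4me3 marks active promoters at the start of a gene and H3K27me3 is the Polycomb mark. miR-93-5p, the overexpressed microRNA, is shown because its seed decides which mRNAs it pairs with. The mature sequence is from RefSeq (GRCm38.p6, chromosome 5, 138165574 to 138165596, minus strand), with the seed, bases 2 to 8, in capitals.
mmu-miR-93-5p: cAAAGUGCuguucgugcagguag

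The members were unevenly spread over the genome. Chromosome 7 held 25, chromosome 17 held 17, and chromosomes 2, 4, 8 and 13 held 11 each. In 11 runs, 4 or more members followed each other with at most 1 Mb between neighbours, and these runs held 66 of the 113 members, while 31 had no other member within 1 Mb. Their mm9 models were often short. The locus had under 0.8 of the RefSeq gene length in 36 members (31.9%), against 8.42% of all protein-coding genes, so a percentage of the gene body can refer to the last exons alone, and an H3K4me3 peak at the start can lie outside the locus.

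H3K9me3 lay over a large share of these genes. A peak overlapped the gene body by at least 1 bp in 43 of 113 members in scr (38.1%) and in 57 in miR-93-5p (50.4%), where all 18467 protein-coding genes gave 15.4% and 20.3%. Zfp genes numbered below 700, of which 236 had an mm9 locus, gave 31.8% and 41.5%. Members with at least 50% of the gene body under peaks numbered 7 in scr (6.19%) and 16 in miR-93-5p (14.2%), where all genes gave 0.590% and 0.986% and Zfp genes below 700 gave 3.39% and 8.05%. The deposited peak lists themselves differed in size, with 15888 H3K9me3 peaks over 21.6 Mb in scr and 25879 over 39.2 Mb in miR-93-5p. With the miR-93-5p list cut to its 15888 highest-scoring peaks, an alternative chosen after the data were seen, 47 members had a peak in miR-93-5p and all genes gave 15.2%. Peaks on members had a median length of 1580 bp in scr and 1903 bp in miR-93-5p against 1138 bp and 1261 bp over all peaks. Of the 100 longest H3K9me3 peaks, 9 lay on members in scr and 11 in miR-93-5p. Of all H3K9me3 peaks, 0.598% and 0.437% lay on members, though a long peak reaches a gene more readily than a short one. This count was not made for Zfp genes below 700.

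The most covered members were Zfp958 and Zfp930, whose mm9 loci on chromosome 8 (4625840 to 4629380 and 71750242 to 71752879) lay wholly inside 1 peak in each library. The Zfp958 peak spanned 11144 bp in scr and 13065 bp in miR-93-5p, and the Zfp930 peak 8595 bp and 10411 bp. Zfp873 on chromosome 10 stood at 75.7% in scr and 100% in miR-93-5p, and Zfp872 on chromosome 9 at 75.0% and 100%. These 4 loci had between 0.098 and 0.255 of the RefSeq gene length, and none carried an H3K4me3 peak. Members with nearly complete models were also among the most covered. Zfp942 (chromosome 17, 22063927 to 22099431) was at 63.1% under 8 peaks in scr and at 69.5% under 6 in miR-93-5p, and Zfp763 (chromosome 17, 33153808 to 33170347) was at 45.4% and 70.4%. Zfp758 was covered over 88.9% in scr and 86.5% in miR-93-5p of a locus with 0.487 of the RefSeq length. Zfp709 stood at 57.1% and 68.6%, and Zfp951 at 45.1% and 75.2%, both with short loci.

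Coverage was higher in the miR-93-5p library at many members and much lower at none. At least 10 percentage points more of the gene body was covered in miR-93-5p at 22 members (19.5%), where all genes gave 2.05%, and at least 10 points less at 0 members, where all genes gave 0.428%. Among genes with a peak in either library the share was 36.7% of members, 35.3% of Zfp genes below 700 and 9.05% of all genes, so the members stood close to the other Zfp genes by this count. With lists of an equal number of peaks 17 members were covered at least 10 points more and 2 less, Zfp709 (57.1% in scr and 47.1% in miR-93-5p) and Zfp932 (10.2% and 0%). The bases covered by these lists were not matched. Of the 22 members, 14 had a locus under 0.8 of the RefSeq length. Among the 74 members whose locus had 0.8 to 1.2 of that length, again an alternative chosen after the data were seen, 8 (10.8%) were covered at least 10 points more, against 1.77% of all genes with such loci.

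The largest difference was at Zfp959 (chromosome 17, 56031607 to 56038007), which had no H3K9me3 peak in scr and 3 peaks over 56.2% of the gene body in miR-93-5p. Zfp939 on chromosome 7 was at 14.9% in scr and 64.7% in miR-93-5p over a locus with 0.142 of the RefSeq length. Zfp869 on chromosome 8 was at 0% and 46.1%. Zfp946 (chromosome 17, 22561189 to 22593656), with a full-length locus, was at 20.7% and 52.6%. Zfp809, which encodes a KRAB zinc finger protein known to bind the primer binding site of retroviruses and silence them in embryonic cells, lies on chromosome 9 (22030274 to 22047641) and was at 31.8% under 4 peaks in scr and at 81.1% under 5 peaks in miR-93-5p. Its longest peak measured 1910 bp in scr and 4586 bp in miR-93-5p, and an H3K4me3 peak overlapped the gene in both libraries. The 5 members with the largest loss were Zfp871 (7.67% to 0%), Zfp932 (10.2% to 4.41%), Zfp961 (4.58% to 0%), Zfp777 (23.8% to 19.9%) and Zfp758 (88.9% to 86.5%). Of the 113 members, 46 were covered more in miR-93-5p, 12 less and 55 equally, 53 of the last having no peak in either library.

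**Figure D1:**
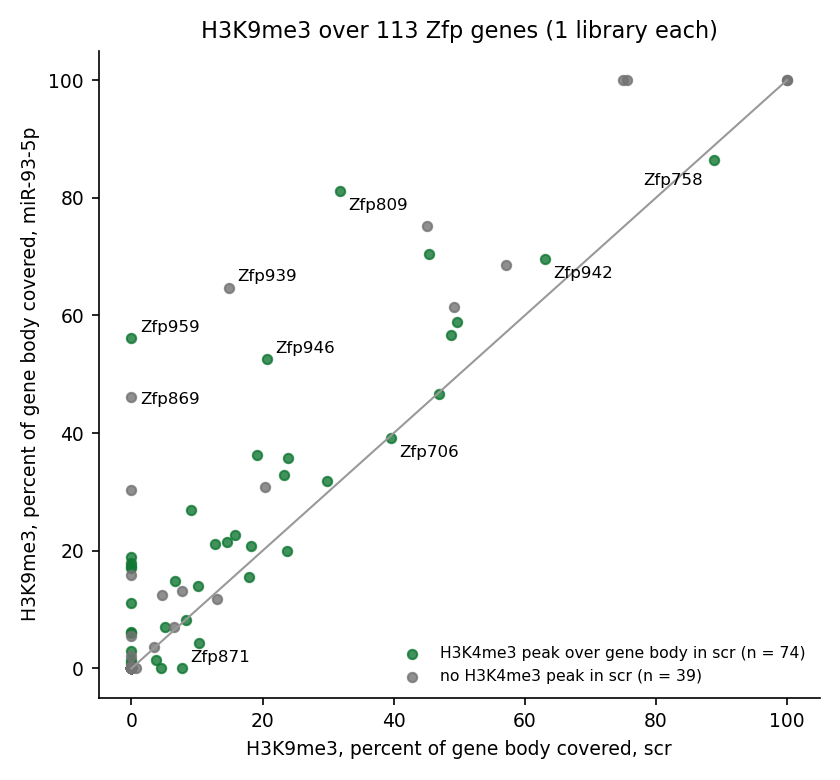
Percent of each member's mm9 gene body under H3K9me3 peaks in scr (horizontal) and miR-93-5p (vertical), 1 point per gene, 1 library per condition, green where an H3K4me3 peak overlapped the gene in scr. Most points off the origin lie above the grey line of equal coverage, with Zfp959 at 0% and 56.2%, and Zfp809 at 31.8% and 81.1%.

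Runs of members differed in H3K9me3. In the run of 12 on chromosome 17 (21704010 to 23004101), 9 members had a peak in scr and 10 in miR-93-5p, with medians of 19.4% and 26.3% covered. This run holds Zfp942, Zfp943, Zfp944, Zfp758, Zfp946 and Zfp945, and 10 of its 12 members also carried H3K4me3 in each library. The run of 7 on chromosome 13, which holds Zfp708, a gene whose product was reported to bind a retroviral element in oocytes, had 3 members with a peak in scr and 6 in miR-93-5p. Zfp708 itself was at 9.15% and 26.9%. The run of 11 on chromosome 4 had 4 and 6 members with a peak, and its highest coverage was 12.8% in scr and 21.2% in miR-93-5p, at Zfp933. The run of 8 on chromosome 7 from 48888573 had 3 and 6. No peak lay over any of the 8 members in the pair of runs on chromosome 2, nor over the 4 members on chromosome 7 around 134388040, in either library. Several of those chromosome 2 members are near copies in their promoters, as described below. Reads from such copies may have been assigned to no gene, which the deposited lists do not show. Members in runs had a peak in 24 of 66 cases in scr and 36 in miR-93-5p, and the other 47 members in 19 and 21.

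**Figure D2:**
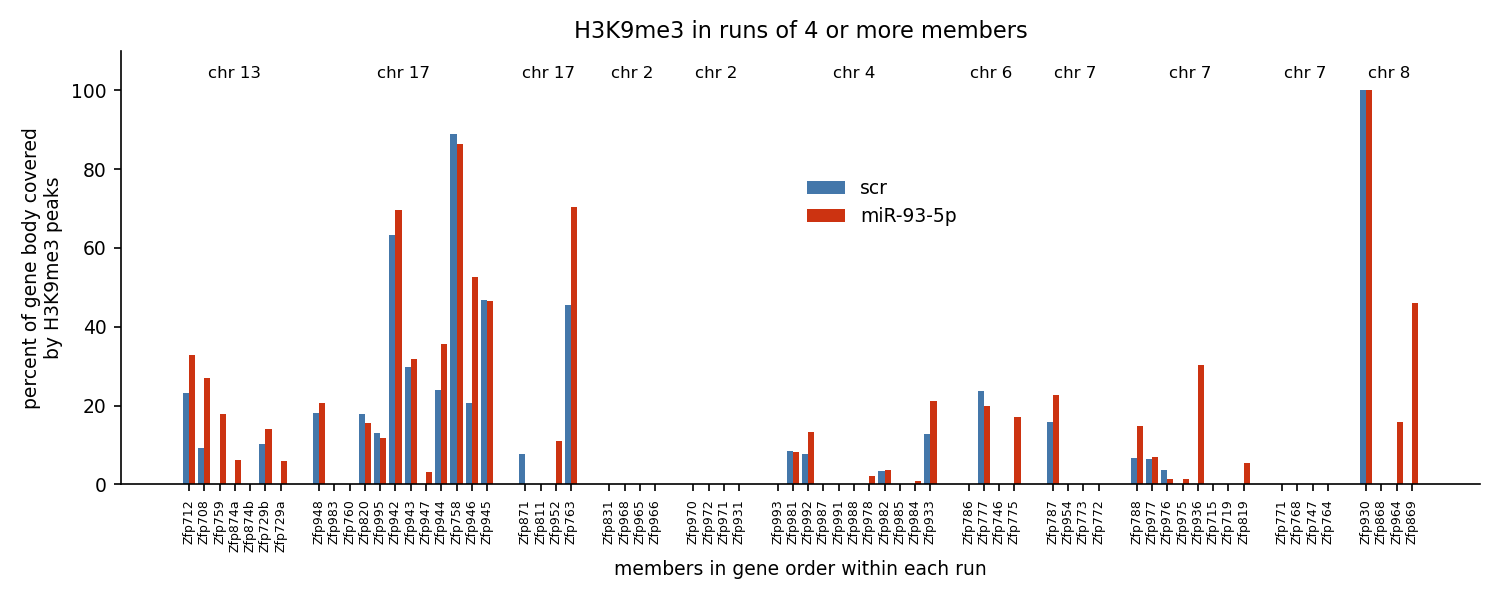
Percent of the gene body under H3K9me3 peaks in scr (blue) and miR-93-5p (red) for the 66 members that lie in runs of 4 or more, in gene order, with the chromosome above each run. Bars above 45% in either library are in the run of 12 on chromosome 17 and at Zfp763, Zfp930 and Zfp869, and both runs on chromosome 2 and 1 run on chromosome 7 are at 0.

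H3K4me3 was found at most members in about equal numbers in the 2 libraries. A peak overlapped the gene body in 74 of 113 members in scr (65.5%) and 73 in miR-93-5p (64.6%), where all genes gave 56.4% and 56.6%, and Zfp genes below 700 gave 78.8% in each. Of the 38 members with no H3K4me3 peak in either library, 23 had a locus under 0.8 of the RefSeq length. Among the 74 members of nearly equal length, 58 had H3K4me3 in scr (78.4%) and 57 in miR-93-5p (77.0%), where all genes with such loci gave 58.2% and 58.5%. Counting only genes with at least 10% of the body covered, members gave 22.1% and 26.5% and all genes 22.4% and 23.8%. A peak was found in scr alone at Zfp931 (382 bp) and Zfp981 (772 bp) and in miR-93-5p alone at Zfp985 (659 bp), with peak scores between 70.1 and 104 where the median of each list was 3100. No member differed by at least 10 percentage points of its gene body in H3K4me3, 0 upward, where all genes gave 1.38%, and 0 downward, where all genes gave 0.514%. Zfp703 and Zfp704 encode related corepressors with a lone zinc finger. Zfp703 carried H3K4me3 peaks of 5916 bp in scr and 6231 bp in miR-93-5p and no H3K9me3. Zfp704 carried H3K4me3 peaks of 3318 bp and 3431 bp and H3K9me3 over 5.13% and 7.03% of its 183075 bp.

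Many members carried H3K4me3 and H3K9me3 on the same gene. Both marks were present over 28 members in scr (24.8%) and 36 in miR-93-5p (31.9%), where all genes gave 9.31% and 12.0%, and Zfp genes below 700 gave 23.7% and 32.6%. Peaks of the 2 marks overlapped each other in 1 of the 28 and 2 of the 36, and over all genes with both marks in 141 of 1720 and 258 of 2215, so the marks were mostly apart on genes in general. The gene body was read in 10 equal segments from the end that carried H3K4me3, an end that was the RefSeq start in 62 of 63 members with a strand. Over the 27 members with H3K9me3 that could be oriented in scr, segment 1 was covered over 4.06% on average, segment 9 over 50.7% and segment 10 over 59.7%. In miR-93-5p, over 36 members, these means were 3.98%, 59.7% and 56.4%. Zfp genes below 700 showed a like profile, with 2.17%, 51.9% and 41.6% in scr. Over all genes with H3K9me3 that could be oriented the means were 4.01%, 6.48% and 6.66% in scr. The mark thus lay towards the far end of members, the end that holds the zinc finger exons in genes of this family. The exons themselves were not placed here.

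**Figure D3:**
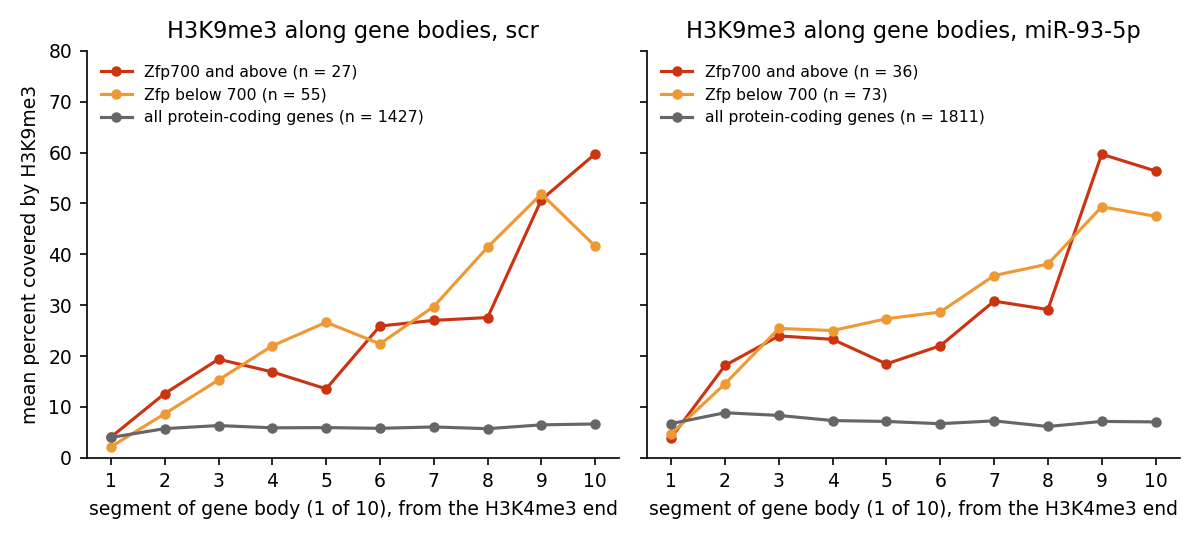
Mean percent of each of 10 segments of the gene body under H3K9me3 peaks, counted from the end with H3K4me3, in scr (left) and miR-93-5p (right), over genes with H3K9me3 whose H3K4me3 lay at 1 end. Members (red) and Zfp genes below 700 (orange) climb from under 5% in segment 1 to over 40% in the last, and all protein-coding genes (grey) stay under 10%.

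H3K27me3 was rare on members. A peak overlapped 8 members in scr and 8 in miR-93-5p (7.08% each), where all genes gave 20.4% and 19.0%. Zfp genes below 700 gave 9.75% and 10.6%, so the low share was not particular to members. The highest values were at Zfp819, with 22.5% of the gene body covered in scr and 12.3% in miR-93-5p, and at Zfp811, with 15.9% and 31.7%. In miR-93-5p 1 member was covered at least 10 points more, Zfp811, where all genes gave 0.449%, and 2 at least 10 points less, Zfp819 and Zfp764 (15.3% to 0%), where all genes gave 9.81%. These members were named after their values were seen. The deposited H3K27me3 lists differed too, with a median peak length of 1049 bp in scr and 473 bp in miR-93-5p. The part of this difference in the losses at Zfp819 and Zfp764 was not tested.

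Promoter sequences were compared because some members on chromosomes 2 and 17 are near copies, and those shown on chromosome 2 differed in their marks. Windows of 300 bases, 250 before to 50 after the gene start, were taken from RefSeq (GRCm38.p6) for 99 of the 113 members. Where a gene had more than 1 such window, the window with the most CG dinucleotides stood for it. In 12 members (12.1%, against 2.31% of all genes) at least 50% of the 36-base words of the window also occurred in another gene's promoter. H3K9me3 lay over the gene body in scr in 4 of these 12 and in 33 of the other 87. On chromosome 17, Zfp942 and Zfp943 start back to back and their windows share 194 bases, and Zfp944 and Zfp758 do so with 162 bases. The first of the following was read from 21962415 to 21962714 (minus strand), the second from 22361351 to 22361650 (minus), the third from 21962309 to 21962608 (plus) and the fourth from 22361213 to 22361512 (plus). CG dinucleotides are in capitals.
Zfp942: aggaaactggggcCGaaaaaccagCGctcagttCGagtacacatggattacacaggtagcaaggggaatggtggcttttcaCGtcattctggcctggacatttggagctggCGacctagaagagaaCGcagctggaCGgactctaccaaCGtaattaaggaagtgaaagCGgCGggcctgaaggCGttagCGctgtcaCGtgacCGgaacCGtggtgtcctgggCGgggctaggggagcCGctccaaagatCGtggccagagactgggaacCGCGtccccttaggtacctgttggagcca
Zfp944: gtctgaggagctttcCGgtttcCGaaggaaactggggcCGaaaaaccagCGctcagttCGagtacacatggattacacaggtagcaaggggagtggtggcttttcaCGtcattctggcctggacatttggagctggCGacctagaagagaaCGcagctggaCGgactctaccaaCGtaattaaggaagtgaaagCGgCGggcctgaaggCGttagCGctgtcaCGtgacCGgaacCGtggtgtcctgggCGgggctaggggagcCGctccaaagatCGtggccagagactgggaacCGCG
Zfp943: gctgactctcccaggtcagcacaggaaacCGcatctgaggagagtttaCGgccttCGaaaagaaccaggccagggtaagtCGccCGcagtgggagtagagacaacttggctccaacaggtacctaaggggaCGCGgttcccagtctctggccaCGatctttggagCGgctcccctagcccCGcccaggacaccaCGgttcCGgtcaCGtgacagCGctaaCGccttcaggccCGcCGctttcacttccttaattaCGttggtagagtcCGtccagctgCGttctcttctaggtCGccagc
Zfp758: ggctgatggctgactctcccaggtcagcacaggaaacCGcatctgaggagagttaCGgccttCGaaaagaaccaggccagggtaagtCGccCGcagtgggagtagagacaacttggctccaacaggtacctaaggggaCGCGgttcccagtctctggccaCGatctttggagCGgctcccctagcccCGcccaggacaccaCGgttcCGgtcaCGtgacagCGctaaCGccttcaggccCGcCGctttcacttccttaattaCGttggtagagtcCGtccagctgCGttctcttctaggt
The windows of Zfp943 and Zfp758 were identical at 94.8% of aligned positions, with 0 mismatches and 16 gap positions, and those of Zfp942 and Zfp944 at 84.3%, with 1 mismatch and 50 gap positions. In mm9, 87 bp lay between the loci of Zfp942 and Zfp943 and 52 bp between those of Zfp944 and Zfp758. A single H3K4me3 peak overlapped both genes of each pair, of 3490 bp in scr and 3369 bp in miR-93-5p at the first pair and of 3264 bp and 3430 bp at the second. H3K9me3 covered all 4 gene bodies, with 63.1%, 29.8%, 23.9% and 88.9% in scr and 69.5%, 31.8%, 35.7% and 86.5% in miR-93-5p for Zfp942, Zfp943, Zfp944 and Zfp758. The mm9 locus of Zfp943 has 3.41 times the RefSeq gene length and that of Zfp758 0.487, so these shares refer to models of unequal completeness. Each of the 4 genes thus shared an H3K4me3 peak with its neighbour and had H3K9me3 peaks over its body.

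On chromosome 2, Zfp966 (175931051 to 175931350, minus strand) and Zfp970 (177464492 to 177464791, plus) have promoters that matched at 96.1% of aligned positions, with 2 mismatches and 10 gap positions. They are shown, with CG in capitals, because their marks and mRNA differed.
Zfp966: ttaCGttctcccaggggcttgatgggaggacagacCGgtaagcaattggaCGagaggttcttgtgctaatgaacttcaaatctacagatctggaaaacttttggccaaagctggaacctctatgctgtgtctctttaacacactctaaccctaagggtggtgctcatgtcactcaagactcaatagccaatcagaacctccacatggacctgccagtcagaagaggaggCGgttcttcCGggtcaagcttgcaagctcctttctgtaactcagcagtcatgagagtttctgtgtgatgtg
Zfp970: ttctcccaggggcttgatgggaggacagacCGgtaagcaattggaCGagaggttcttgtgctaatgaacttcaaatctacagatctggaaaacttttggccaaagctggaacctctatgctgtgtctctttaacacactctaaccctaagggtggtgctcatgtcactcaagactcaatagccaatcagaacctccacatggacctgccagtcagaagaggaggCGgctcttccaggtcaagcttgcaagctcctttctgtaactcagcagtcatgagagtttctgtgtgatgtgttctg
Zfp970 carried H3K4me3 peaks of 578 bp in scr and 740 bp in miR-93-5p, and its FPKM was 17.9 in scr, 17.2 with miR-93-5p and 16.7 with mutant. Zfp966 had no H3K4me3 peak in either library and no matched RNA-seq locus. Neither had H3K9me3. All 36-base words of each window also occurred in another promoter, so reads from these copies may have been assigned to either gene or to neither, which the deposited lists do not show.

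Members with H3K4me3 had a lower median count of CG dinucleotides in their promoters than all genes with this mark. Each gene counts by its window with the most CG, which can raise genes with several starts. The median was 11 CG per 300 bases over 65 members with H3K4me3 in both libraries, 17 over Zfp genes below 700 and 23 over all genes with it. At least 15 CG were present in 36.9% of these members and 79.1% of all such genes. Members without H3K4me3 in either library had a median of 7, Zfp genes below 700 without it 13.5, and all genes without it 4. Counts ran from 2 to 54, with Zfp970 at 3 and Zfp740 (chromosome 15, 102203750 to 102204049, plus strand) at 54, while Zfp809 (chromosome 9, 22225453 to 22225752, plus) had 11. Zfp809 is shown as a member at the median and Zfp740 as the member with the most CG, with CG in capitals as before.
Zfp809: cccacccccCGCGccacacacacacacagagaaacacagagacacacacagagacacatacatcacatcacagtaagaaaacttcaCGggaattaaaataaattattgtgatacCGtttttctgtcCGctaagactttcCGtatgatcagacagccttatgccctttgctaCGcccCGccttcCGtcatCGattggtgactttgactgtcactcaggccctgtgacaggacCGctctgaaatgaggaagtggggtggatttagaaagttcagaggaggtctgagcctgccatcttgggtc
Zfp740: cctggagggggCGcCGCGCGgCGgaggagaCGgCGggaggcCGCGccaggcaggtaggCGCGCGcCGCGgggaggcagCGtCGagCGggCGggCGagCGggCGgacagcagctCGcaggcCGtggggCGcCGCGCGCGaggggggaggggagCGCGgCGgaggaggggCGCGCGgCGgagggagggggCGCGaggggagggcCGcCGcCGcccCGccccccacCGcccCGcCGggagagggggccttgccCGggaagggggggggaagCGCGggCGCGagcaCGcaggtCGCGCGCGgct
Zfp740 carried H3K4me3 peaks of 4126 bp in scr and 4333 bp in miR-93-5p, and Zfp809 peaks of 2399 bp and 2139 bp.

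**Figure D4:**
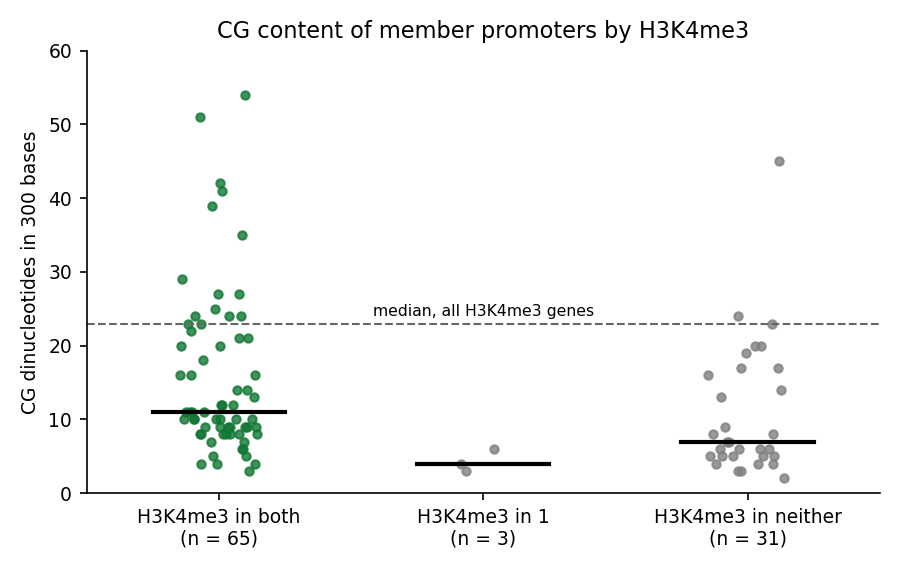
CG dinucleotides in the 300-base promoter window of 99 members, 1 point per gene, by whether an H3K4me3 peak overlapped the gene in both libraries, 1 or neither, with black bars at the medians (11 and 7 in the first and last group) and a dashed line at 23, the median of all genes with H3K4me3 in both. Each gene is shown by its window with the most CG. Most members with H3K4me3 lie below the dashed line.

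The mRNA of members was measured in FPKM, fragments per kilobase of an assembled transcript model, scaled to the library's size. Of 113 members, 71 matched an assembled RNA-seq locus in at least 1 library (62.8%, against 52.4% of all genes), 55 in all 3, and 16 in 1 or 2. A further 18 overlapped a locus that could not be matched to them, and 24 overlapped none. The 55 compared had a median FPKM of 5.94 (mean of 3 libraries), from 1.04 at Zfp791 to 117 at Zfp706, against 15.8 over the 8425 genes compared and 5.46 over Zfp genes below 700. At least 10 FPKM was reached by 25.5% of them and by 66.2% of all genes compared.

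The most abundant member was Zfp706, a small zinc finger gene known for a part in the exit of stem cells from self-renewal, with FPKM of 99.2, 117 and 134 in scr, miR-93-5p and mutant. H3K9me3 covered 39.6% of its body in scr and 39.1% in miR-93-5p, beside H3K4me3 peaks of 3832 bp and 3869 bp. Zfp740 followed with 38.5, 39.4 and 35.9 FPKM, and Zfp932, whose product was reported to bind endogenous retroviruses, with 35.1, 36.2 and 35.8. Zfp948 stood at 15.4, 18.3 and 20.5, Zfp970 at 17.9, 17.2 and 16.7, Zfp771 at 12.0, 18.8 and 18.6, and Zfp944 at 18.4, 14.6 and 15.6. Zfp706 was highest in every library, with Zfp740 and Zfp932 next.

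Levels of most members lay close together in the 3 libraries. The median log2 ratio of FPKM plus 1 in miR-93-5p was 0.04 over scr and 0.03 over mutant, beside 0.03 and 0.01 over all genes compared. Of the 55 ratios over scr, 46 lay within 0.5 (83.6%), where all genes compared gave 72.9% and Zfp genes below 700 gave 91.7%. Members at least 2-fold above both other libraries in miR-93-5p numbered 2 of 55 (3.64%), where all genes gave 0.665%, and members at least 2-fold below both numbered 0, where all genes gave 0.878%. Against scr alone, 3 members were at least 2-fold higher in miR-93-5p (Zfp865, Zfp938 and Zfp945), where all genes gave 2.97%, and 1 was lower (Zfp820), where all genes gave 3.86%. Against mutant alone, 2 were higher, where all genes gave 1.85%, and 0 lower, where all genes gave 1.77%. In mutant against scr, 1 was higher (Zfp945), where all genes gave 2.64%, and 1 lower (Zfp971), where all genes gave 3.63%. These comparisons share libraries.

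The 2 members higher than in both were Zfp865 and Zfp938. Zfp865 stood at 5.71 FPKM in scr (deposited bounds 5.24 to 6.18), 15.1 in miR-93-5p (13.8 to 16.5) and 3.08 in mutant (2.84 to 3.31). Zfp938 stood at 9.12 (8.12 to 10.1), 27.9 (23.5 to 32.3) and 9.66 (8.75 to 10.6).

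These differences were not present in the number of fragments. The fragments implied by the width of the deposited bounds are not divided by the length of the assembled model. A shorter model can still collect fewer of them, and the part of model length in either measure was not tested. Before scaling between libraries they were 591, 490 and 688 for Zfp865 and 338, 159 and 445 for Zfp938 in scr, miR-93-5p and mutant. After scaling, the log2 ratios in miR-93-5p over scr and over mutant were -0.31 and -0.15 for Zfp865. For Zfp938 they were -1.09 and -1.10. Fragment numbers printed here and below are unscaled and also carry differences in library size, while calls use scaled values. By implied fragments 0 of 52 members were higher and 5 were lower than in both other libraries, where all genes gave 1.99% and 3.75%. The 5 were Zfp706, Zfp707, Zfp760, Zfp938 and Zfp944, and Zfp938 thus changed direction with the measure. Zfp945 was at 5.47, 21.7 and 16.9 FPKM with 569, 291 and 375 implied fragments. Zfp820 was at 9.03, 3.86 and 4.92 FPKM, and its miR-93-5p value had bounds of 0 to 49.5. Zfp971 was at 10.5, 5.27 and 4.57 FPKM with 266, 603 and 750 implied fragments. Bounds also widen where isoforms share fragments, so implied numbers can lie below the real ones. Zfp703 was at 6.97, 10.1 and 9.40 FPKM and Zfp704 at 6.51, 7.75 and 5.94.

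**Figure D5:**
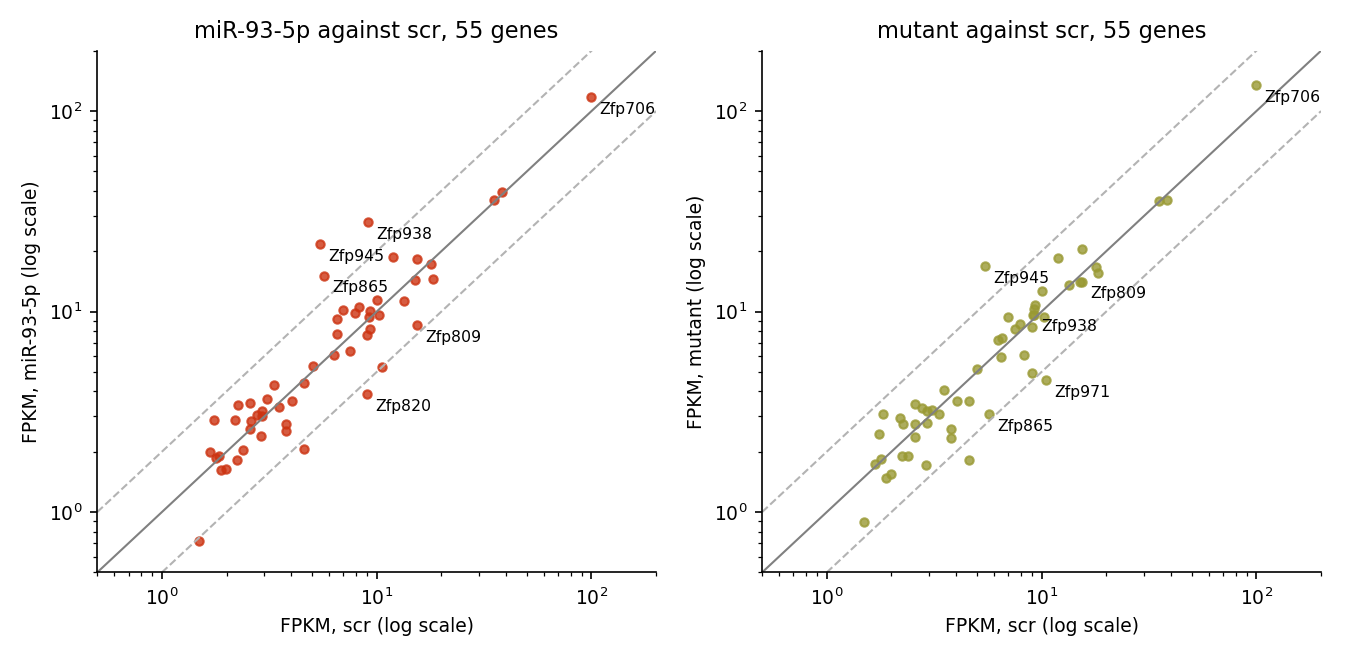
FPKM of the 55 members matched in all 3 RNA-seq libraries, miR-93-5p against scr (left) and mutant against scr (right), on log axes, with a solid line at equality and dashed lines at 2-fold. Most points lie between the dashed lines, Zfp865 and Zfp938 lie above them in miR-93-5p alone, and Zfp945 lies above them in both panels.

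Members with both H3K4me3 and H3K9me3 mostly had a measured mRNA. In scr, 25 of the 28 members with both marks matched an RNA-seq locus, with a median of 7.94 FPKM, and 34 of the 46 with H3K4me3 alone did, with a median of 3.92. Of the 15 members with H3K9me3 alone 1 matched, and of the 24 with neither mark 1 matched. Over all genes the shares matched in these 4 classes were 76.9%, 86.9%, 4.62% and 4.34%. The all-gene medians were 10.6 with both marks and 16.0 with H3K4me3 alone. In miR-93-5p, 32 of 36 members with both marks matched (median 5.88 FPKM), 29 of 37 with H3K4me3 alone, 0 of 21 with H3K9me3 alone and 4 of 19 with neither. All genes there gave 72.8%, 86.3%, 2.29% and 2.92%. Short mm9 loci limit these classes, since such a locus can miss both the H3K4me3 peak and the match to an RNA-seq locus. Zfp958 and Zfp930, with H3K9me3 alone, had 0.182 and 0.123 of the RefSeq length. On GRCm38 they matched pulldown loci, at 5.81 and 2.02 FPKM in scr. An unmatched member is thus not shown to be silent. Members covered at least 10 points more by H3K9me3 in miR-93-5p had a median log2 ratio over scr of 0.04 over the 9 compared, and the 46 others 0.04. In implied fragments these medians were -0.23 over 8 members and 0.07 over 44. Of those 9, in FPKM 1 was at least 2-fold above scr and 0 were that far below. The 1 was Zfp865, with 19.1% of its body covered in scr and 36.2% in miR-93-5p. Its FPKM was 5.71 in scr and 15.1 in miR-93-5p, with 591 and 490 implied fragments. In the order scr, miR-93-5p, mutant, Zfp959 stood at 5.03, 5.34 and 5.16 FPKM, and Zfp946 at 10.0, 11.4 and 12.7. Zfp809 stood at 15.4, 8.59 and 14.1, a log2 ratio of -0.78 over scr, with 856, 797 and 1018 implied fragments.

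Genes of the silencing pathway that KRAB zinc finger proteins use were also read in RNA-seq. Of 34 genes in that list 30 were compared. By the rule used for members, 0 of them were higher in miR-93-5p, where all genes gave 0.665%, and 1 was lower, where all genes gave 0.878%. The median log2 ratio was -0.11 against scr and -0.0045 against mutant, beside 0.03 and 0.01 over all genes compared. The lower gene was Smarcad1, a chromatin remodeller, at 44.8 (scr), 15.2 (miR-93-5p) and 35.5 FPKM (mutant), with 784, 1033 and 972 implied fragments. By those unscaled fragments Smarcad1 was not lower in miR-93-5p. The next largest log2 ratios over scr were -0.56 for the demethylase gene Kdm4a, 0.53 for the Setdb1 cofactor gene Atf7ip, 0.50 for the methyltransferase gene Suv39h1, 0.48 for Zkscan3 and -0.48 for the remodeller gene Chd3. Trim28 and Setdb1, named for their role and with values known, stood at 135, 107 and 141 FPKM and at 17.3, 16.5 and 15.9.

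Markers of cell identity moved between the same libraries. Krt8 and Krt18, keratins of simple epithelia, had FPKM of 658 and 306 in scr, of 230 and 200 in miR-93-5p, and of 283 and 253 in mutant. Cdh1, which encodes E-cadherin, was at 30.7, 1.52 and 3.87. Their implied fragments, unscaled, were 2221, 1945 and 23283 for Krt8, 20417, 7152 and 15645 for Krt18, and 1432, 179 and 492 for Cdh1. The order of the libraries at Krt8 thus depended on the measure. Of 6 hepatocyte markers 3 were compared, and Hnf4a was at 40.6, 7.22 and 27.4. Endothelial and fibroblast lists had 0 of 4 genes compared each, and of the 4 leukocyte genes Csf1r was compared (7.63, 1.16 and 1.82). In bulk RNA, fewer cells of a kind and less RNA per cell cannot be told apart. Their part in the values of the members was not tested.

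The pulldown libraries, whose loci lie on GRCm38, allowed 27 members to be compared. Of 136 members 75 matched a locus in at least 1 library (55.1%, against 43.7% of all genes), 36 of them in miR-93-5p, 48 in scr and 70 in mutant. At least 2-fold above both other libraries in miR-93-5p was 1 of 27 members, Zfp938, where all 5246 genes gave 1.64%, and 0 were at least 2-fold below both, where all genes gave 11.9%. Zfp938 stood at 29.7 FPKM in scr (22.6 to 36.8), 96.7 in miR-93-5p (83.2 to 110) and 12.9 in mutant (11.7 to 14.2). Its implied fragments were 70.3, 206 and 405 before scaling. In scaled fragments its log2 ratio in miR-93-5p was 2.03 over scr and -0.15 over mutant, so by that measure it was not above mutant. The median log2 ratio of the 27 members was 0.02 over scr and 0.10 over mutant, beside -0.48 and -0.43 over all genes compared. A gene with no matched locus in miR-93-5p was left out and not counted as lower. The genes compared were 27 of the 75 matched members and 5246 of all 9455 matched genes. Pulldown shares and medians, here and below, thus cover unequal parts of the members and of all genes.

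Against scr alone, 8 of the 27 members were at least 2-fold higher in miR-93-5p (29.6%, where all genes gave 11.8%) and 9 in mutant (33.3%, where all genes gave 21.8%), and both counts use the same scr library. The chromosome 2 genes Zfp965, Zfp968, Zfp971, Zfp972 and Zfp931 were among both. In the order scr, miR-93-5p, mutant, Zfp968 was at 33.3, 150 and 76.7 FPKM, and Zfp965 at 3.71, 19.0 and 22.0. Zfp971 was at 1.95, 9.05 and 9.49, and Zfp972 at 9.66, 38.8 and 41.3, and Zfp931 at 4.31, 14.3 and 14.5. Apart from Zfp968, these genes were near equal in miR-93-5p and mutant. Apart from Zfp972 they share at least 50% of promoter words with another gene, and reads from such copies may be split between them. The other members above scr in miR-93-5p included Zfp768 (8.15, 19.8 and 18.4) and Zfp830, a gene needed for pre-mRNA splicing (6.90, 22.9 and 48.3). Zfp706, the most abundant member in RNA-seq, stood at 84.3, 106 and 52.1, at least 2-fold above mutant, as 2 members were (all genes, 4.88%), and not that far above scr. In scaled fragments its log2 ratio in miR-93-5p was 0.25 over mutant and -0.44 over scr, so by that measure it was not 2-fold above mutant. At least 2-fold below scr were 1 member in miR-93-5p (all genes, 33.5%) and 4 in mutant (all genes, 22.9%), and 2 members were that far below mutant in miR-93-5p (all genes, 26.5%).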

How the data were processed

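RNA-seq and pulldown values are the deposited FPKM of loci assembled in each library, with a lower and an upper bound, per the file headers. Each deposited H3K9me3, H3K4me3 and H3K27me3 peak has a score from the authors' peak caller, from 50 up, and peaks were listed per library. TopHat2, Cufflinks, Cuffdiff, CASAVA 1.4, Bowtie, MACS and mm9 are named, without settings, per the submitters' processing notes. Read depth is not given in the sources used here.

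Locus ends lay within 5 bp of mm9 gene ends 913 to 1032 times per RNA-seq library and of GRCm38 gene ends 31 to 34 times, and in the pulldown 20 to 31 and 601 to 712 times, so pulldown loci were read on GRCm38. Gene loci on mm9 came from identifiers listed at 0 in the pulldown files. Assembled loci were named by reciprocal best overlap with a gene, sharing at least 0.5 of the joint length. The comparison, for genes so named in all 3 libraries and averaging 1 FPKM or more, was on log2(FPKM + 1), which understates changes of low genes, with a call at 2-fold from both other libraries. Implied fragments are (2 FPKM/(upper bound - FPKM)) squared, and the numbers are printed in that form. For log2 ratios and calls they were scaled to a median ratio of 1 to scr, with 10 added. Peak scores were not compared between libraries. Promoter windows were aligned with Biopython 1.88, and other steps used Python 3.11.15, pandas 2.3.3 and numpy 2.4.6. The code was tested on simulated data.

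The members, lists and thresholds were chosen with earlier results of these data known, and the length restriction, equal peak lists and runs after the files were seen. Named members were the 8 most abundant, all called, the 10 most covered by H3K9me3, the 5 with the largest gain and loss, those with H3K4me3 in 1 library, Zfp809, Zfp703 and Zfp704, with up to 6 silencing genes. Further members are named as examples chosen after their values were seen.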

Additional observations from a re-analysis of the deposited data

How the results depend on the processing

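No paired analysis was possible because each assay and condition had 1 library, and for the same reason no library could be left out. Of 96 recomputed values over 18 counts and medians, 72 stayed within 1.5 times (counts), 1 percentage point or 0.1 on the log2 scale (medians), and 24 moved. With only the 74 members of nearly equal locus length, H3K9me3 lay over 25 in scr and 34 in miR-93-5p, 8 were covered at least 10 points more, and H3K27me3 lay over 2 and 3, partly because fewer members were counted. At least 25 points more H3K9me3 was found at 9 members, and with lists of an equal number of peaks 2 were covered at least 10 points less. H3K4me3 reached 10% of the gene body at 25 members in scr and 30 in miR-93-5p, shares near those of all genes (22.4% and 23.8%). H3K27me3 peaks of score 100 or more lay over 3 and 3 members, and H3K27me3 reached 10% of the body at 4 and 2. In RNA-seq, a shared length of at least 0.9 left 36 members and 0 higher in miR-93-5p, and implied fragments gave 0 higher and 5 lower. In the pulldown, that stricter match left 8 members, 0 higher and a median over scr of 0.59. With each pulldown library centred on a median of 0, 2 members were higher with medians of 0.50 against scr and 0.53 against mutant. Implied fragments gave 0 higher and 1 lower there, with a median over scr of 1.18. The cause of these shifts was not tested. The share with H3K9me3 stayed above that of all genes in every setting run for that count. Depth limits what the peak lists can show, since a member without a peak may hold H3K9me3 under the caller's limit.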
